A study of Mus musculus with 8 samples.

Results

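The comparison described here set mouse bone marrow cells that expressed a mutant PSS1, named PSS1-LMS, and were treated with M-CSF and RANKL against cells treated with M-CSF and RANKL alone. It rested on 4 of the 8 arrays in the series, chosen by their titles and matched by day: 2 PSS1-LMS arrays and 2 M-CSF+RANKL arrays, 1 of each on day 3 and on day 6 of treatment. All cells were C57BL6/J bone marrow cells seeded 1 day before treatment. The PSS1-LMS cultures received M-CSF at 50 ng/ml, RANKL at 100 ng/ml and, 1 day later, a retrovirus carrying the mutant protein. The PSS1-WT cultures received the same factors and a retrovirus carrying the wild-type protein. The M-CSF+RANKL cultures received both factors, and the M-CSF cultures received M-CSF without RANKL. The labels do not name the mutation, the species of the insert, or any empty-vector control, so the mutation, the extra PSS1 and the infection itself cannot be told apart in PSS1-LMS against M-CSF+RANKL. They do not give the animals' age or sex, and they do not say whether the day 3 and day 6 cells came from 1 culture or 1 animal.

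PSS1, the product of the gene Ptdss1, is phosphatidylserine synthase 1, an enzyme of the endoplasmic reticulum that exchanges the choline of phosphatidylcholine for serine. Mutations of the gene that free the enzyme from inhibition by its own product cause Lenz-Majewski syndrome, whose usual abbreviation is LMS and whose features include dense bone. Osteoclasts, the cells that dissolve bone, form when RANKL acts on precursors of the macrophage lineage, which fuse, switch on genes of acid secretion and collagen breakdown, and lose much of the macrophage programme. Phosphatidylserine on the cell surface marks dying cells for uptake and is also exposed by precursors that fuse.

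Signals are on the log2 scale, so a difference of 1 is 2-fold. Apart from the summed signals of marker lists, they were not set against each other between genes. The scale ended at 19.93, and each array's brightest of 23 background probe sets, which have no target in mouse RNA, lay between 5.54 and 7.13. Of 19505 genes with a symbol, 10871 were measured, meaning that at least 1 of the 8 arrays reached the median of the deposited table. The difference averaged over the 2 days was tested with limma in the 6 arrays with RANKL, with culture and day as terms and Benjamini-Hochberg adjustment over the measured genes. Since the day is the only repeat, the p-values and standard errors cover how far a difference changed between days and not the spread over animals or cultures. They rest mostly on a spread pooled over all genes, and the number of arrays limits their precision.

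Ptdss1 itself was checked first. Its signal was 18.79 on day 3 and 17.50 on day 6 in PSS1-LMS cells, 18.91 and 18.06 in PSS1-WT cells, 9.56 and 10.36 in M-CSF+RANKL cells, and 10.31 and 10.33 in M-CSF cells. The 4 arrays of cells given a PSS1 virus were thus far brighter than the other 4. The PSS1-LMS cells exceeded the M-CSF+RANKL cells 291-fold (8.18 ± 0.37, limma adjusted p = 5.58e-09), and the difference was 9.23 on day 3 and 7.14 on day 6. Between PSS1-LMS and PSS1-WT the difference was -0.34, with a 95% interval of ± 0.79 (limma adjusted p = 0.882). The probe set cannot separate the mutant from the wild-type transcript.

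Beyond Ptdss1, PSS1-LMS cells held more transcript of 16 genes than M-CSF+RANKL cells, by 2.49-fold to 4.30-fold with a median of 2.78-fold. Among them were surface receptors (Cd36, Trem2, Fcgr3, Clec4d), secreted proteases (Mmp12, Mmp8), the chemokine Ccl3, the growth factor Igf1 and the oxidase subunit Ncf1. With Ptdss1, 17 genes were called higher (0.156% of the genes tested) and 2 were called lower (0.0184%). All 17 were at least 2-fold higher on each day. The calls lay close to the threshold, with limma adjusted p-values between 0.0256 and 0.0388 for the 16 genes. Before adjustment, 714 genes (6.57%) had p under 0.05, where chance alone gives 543.55.

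The number of calls depended on the arrays in the fit. With the day 3 array of M-CSF+RANKL left out it was 52 higher and 31 lower genes, with the PSS1-WT array of day 3 or day 6 left out 47 and 12, and with the day 3 array of PSS1-LMS left out 32 and 13. With the day 6 array of M-CSF+RANKL left out it was 14 and 4, and 5 of the 17 higher calls were kept. With the day 6 array of PSS1-LMS left out it was 7 and 4, and 4 of the 17 were kept. Quantile normalization, a fit of all 8 arrays or a fit without the day term left Ptdss1 as the 1 call, testing genes without a filter left 2 higher calls, and raising all signals to the brightest background left none. In every setting run, the 17 genes stayed higher in PSS1-LMS cells, and only their adjusted p-values crossed the threshold. Each setting reused the arrays on which these genes were at least 2-fold higher on each day. The kept direction was thus largely fixed in advance and supports nothing.

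**Figure D1:**
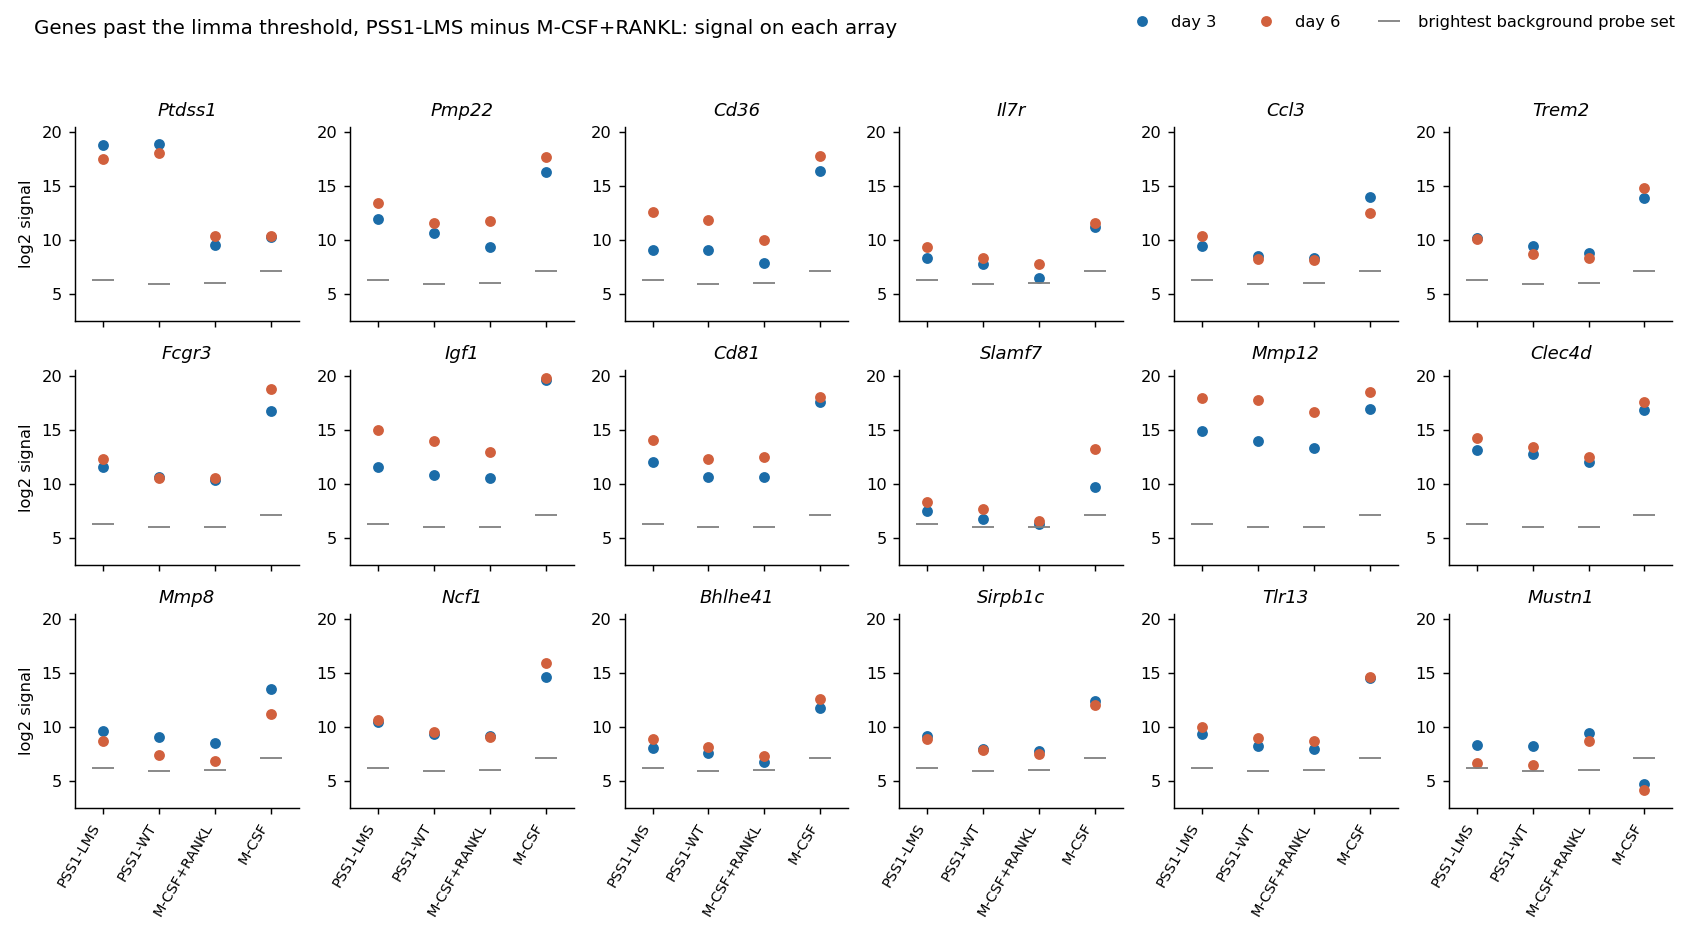
Log2 signal of the 17 genes called higher and of Mustn1, called lower, on each of the 8 arrays, with the cultures along the x axis, blue points for day 3, orange points for day 6, and a grey bar at the brighter of the 2 days' highest background probe sets. In each panel but those of Ptdss1 and Mustn1, the PSS1-LMS points lie above the M-CSF+RANKL point of the same day and below the M-CSF point of the same day.

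The 150 bases before the start of 4 of the genes called higher are shown, as the letters that lie next to genes that moved together, from the RefSeq promoter table of mouse build GRCm38.p6, which held all 16 genes. Each is written 5′ to 3′ on the gene's own strand. Capitals mark GAGGAA, or TTCCTC where it lies on the opposite strand, the core bound by PU.1 and other factors of the ETS family; PU.1 is known as a master factor of macrophages and osteoclast precursors.
Trem2, chr17:48346251-48346400, plus strand: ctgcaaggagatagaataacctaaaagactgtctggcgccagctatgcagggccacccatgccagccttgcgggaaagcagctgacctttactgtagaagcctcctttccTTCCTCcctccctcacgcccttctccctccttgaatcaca
Ccl3, chr11:83649379-83649528, minus strand: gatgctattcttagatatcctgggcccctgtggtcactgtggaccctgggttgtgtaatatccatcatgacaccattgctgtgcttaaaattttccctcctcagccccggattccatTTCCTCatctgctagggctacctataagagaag
Igf1, chr10:87860961-87861110, plus strand: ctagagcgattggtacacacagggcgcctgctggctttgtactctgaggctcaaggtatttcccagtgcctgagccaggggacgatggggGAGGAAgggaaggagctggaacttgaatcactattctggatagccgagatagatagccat
Tlr13, chrX:106143125-106143274, plus strand: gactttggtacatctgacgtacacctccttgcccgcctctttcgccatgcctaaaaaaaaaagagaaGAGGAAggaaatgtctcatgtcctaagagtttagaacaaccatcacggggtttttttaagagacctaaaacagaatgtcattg
In the 250 bases before the start, on either strand, 8 of the 16 genes held this core (50%), against 25.85% of the 27025 genes in the table. The GC box GGGCGG was held by 31.25% of the 16 genes and 35.36% of all genes. None of the 16 held the sterol element TCACNCCAC (1.225% of all genes), the ATF element TGATGNAA (3.907%) or the element TCACGTGA of the MiT family (0.9066%). The GAGGAA motif was chosen after the genes were known, and a match describes letters and not binding.

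The largest difference after Ptdss1 was that of Pmp22, a membrane protein with 4 transmembrane spans known from the myelin of peripheral nerve. Its signal was 11.94 on day 3 and 13.39 on day 6 in PSS1-LMS cells, 10.61 and 11.54 in PSS1-WT cells, 9.38 and 11.74 in M-CSF+RANKL cells, and 16.32 and 17.65 in M-CSF cells. Both PSS1-LMS values lay above both M-CSF+RANKL values, and the average difference was 2.10 ± 0.31 (4.30-fold, limma adjusted p = 0.0256). Cd81, a tetraspanin found on many blood cells, read 11.97 and 14.05 in PSS1-LMS cells, 10.62 and 12.30 in PSS1-WT cells, 10.60 and 12.45 in M-CSF+RANKL cells, and 17.55 and 18.02 in M-CSF cells. Its difference of 1.48 ± 0.25 (limma adjusted p = 0.0348) was 1.36 on day 3 and 1.60 on day 6, although the 2 groups overlapped because both were brighter on day 6.

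Several of the genes called higher encode receptors. Cd36, a scavenger receptor that binds oxidised lipids, fatty acids and phosphatidylserine, had signals of 9.05 and 12.62 in PSS1-LMS cells, 9.05 and 11.84 in PSS1-WT cells, 7.84 and 10.03 in M-CSF+RANKL cells, and 16.43 and 17.77 in M-CSF cells. Its average difference was 1.90 ± 0.30 (3.74-fold, limma adjusted p = 0.0332), made up of 1.21 on day 3 and 2.59 on day 6. Trem2, a receptor for lipids and lipoproteins that signals through the adaptor Tyrobp, stood at 10.21 and 10.14 in PSS1-LMS cells, 9.43 and 8.67 in PSS1-WT cells, 8.79 and 8.38 in M-CSF+RANKL cells, and 13.90 and 14.81 in M-CSF cells. Its groups did not overlap, and it was 3.02-fold higher in PSS1-LMS cells (1.59 ± 0.26, limma adjusted p = 0.0348). Fcgr3, a low-affinity receptor for IgG, read 11.55 and 12.32 in PSS1-LMS cells, 10.60 and 10.53 in PSS1-WT cells, 10.34 and 10.51 in M-CSF+RANKL cells, and 16.72 and 18.79 in M-CSF cells. The 2 PSS1-WT values lay close to the 2 M-CSF+RANKL values, and the PSS1-LMS values stood above all 4 of them. Tyrobp, the adaptor of Trem2, differed by -0.10 (limma adjusted p = 0.995). The ITAM is a tyrosine motif through which adaptors and receptors signal. Of the 15 measured genes of the ITAM list, Trem2 and Fcgr3 were the 2 called higher. None was called lower, and the median was 0.05. The list also holds kinases and the inhibitory receptor Fcgr2b.

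Il7r, the alpha chain of the receptor for interleukin 7, is best known from lymphoid precursors. It read 8.32 and 9.38 in PSS1-LMS cells, 7.82 and 8.34 in PSS1-WT cells, 6.46 and 7.81 in M-CSF+RANKL cells, and 11.22 and 11.60 in M-CSF cells, a difference of 1.72 ± 0.27 (3.28-fold, limma adjusted p = 0.0332). Of the 8 T and NK cell markers with a symbol on the array, 6 lay within background on all 6 arrays with RANKL, and so did 6 of 7 B cell markers. Clec4d, a C-type lectin that recognises mycobacterial glycolipid, read 13.13 and 14.24 in PSS1-LMS cells, 12.73 and 13.37 in PSS1-WT cells, 11.97 and 12.47 in M-CSF+RANKL cells, and 16.81 and 17.58 in M-CSF cells. Tlr13, the endosomal receptor of mice for bacterial ribosomal RNA, read 9.38 and 10.03 in PSS1-LMS cells, 8.26 and 8.99 in PSS1-WT cells, 8.02 and 8.77 in M-CSF+RANKL cells, and 14.52 and 14.63 in M-CSF cells. For both genes the PSS1-LMS arrays lay above the M-CSF+RANKL arrays on either day, by 1.46 ± 0.26 for Clec4d and 1.31 ± 0.24 for Tlr13 (limma adjusted p = 0.0348 and 0.0388). Slamf7, a receptor of the SLAM family, read 7.45 and 8.33 in PSS1-LMS cells, 6.75 and 7.68 in PSS1-WT cells, 6.30 and 6.54 in M-CSF+RANKL cells, and 9.67 and 13.22 in M-CSF cells. Sirpb1c, of the signal-regulatory protein family, read 9.18 and 8.94 in PSS1-LMS cells, 7.97 and 7.90 in PSS1-WT cells, 7.83 and 7.55 in M-CSF+RANKL cells, and 12.39 and 12.08 in M-CSF cells. Neither gene's PSS1-LMS and M-CSF+RANKL arrays overlapped, and the differences were 1.47 ± 0.26 for Slamf7 and 1.37 ± 0.24 for Sirpb1c (limma adjusted p = 0.0348 for each). Sirpb1c has close copies in the genome, and its probes may share their transcripts.

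Among the secreted products called higher, the chemokine Ccl3, which attracts monocytes and lymphocytes, showed the widest gap between PSS1-LMS and PSS1-WT cells. It read 9.44 and 10.35 in PSS1-LMS cells, 8.53 and 8.27 in PSS1-WT cells, 8.37 and 8.14 in M-CSF+RANKL cells, and 13.96 and 12.47 in M-CSF cells. Its difference from M-CSF+RANKL was 1.65 ± 0.30 (3.13-fold, limma adjusted p = 0.0348), with 1.08 on day 3 and 2.22 on day 6. Igf1, the insulin-like growth factor, read 11.50 and 14.96 in PSS1-LMS cells, 10.81 and 13.91 in PSS1-WT cells, 10.49 and 12.95 in M-CSF+RANKL cells, and 19.56 and 19.78, close to the ceiling, in M-CSF cells. The gap to M-CSF+RANKL was 1.01 on day 3 and 2.01 on day 6 (average 1.51 ± 0.28, limma adjusted p = 0.038). Mmp12, the macrophage elastase, read 14.85 and 17.94 in PSS1-LMS cells, 13.91 and 17.71 in PSS1-WT cells, 13.27 and 16.59 in M-CSF+RANKL cells, and 16.90 and 18.49 in M-CSF cells, and differed by 1.46 ± 0.26 (limma adjusted p = 0.0348).

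Mmp8, the neutrophil collagenase, read 9.63 and 8.72 in PSS1-LMS cells, 9.07 and 7.39 in PSS1-WT cells, 8.56 and 6.87 in M-CSF+RANKL cells, and 13.55 and 11.20 in M-CSF cells (1.46 ± 0.27, limma adjusted p = 0.0388). It was the 1 member called among 10 measured neutrophil markers, whose median difference was -0.01. The summed log2 signal of that list was 14.72 and 9.40 in PSS1-LMS cells against 14.67 and 8.45 in M-CSF+RANKL cells. This sum includes Mmp8, which makes up most of its day 6 gap, so it is no separate reading of neutrophils. The part of neutrophils in the Mmp8 result was not tested. Ncf1, a cytosolic subunit of the phagocyte NADPH oxidase, read 10.44 and 10.70 in PSS1-LMS cells, 9.38 and 9.52 in PSS1-WT cells, 9.20 and 9.06 in M-CSF+RANKL cells, and 14.60 and 15.98 in M-CSF cells. Bhlhe41, a transcriptional repressor of the clock, read 8.08 and 8.91 in PSS1-LMS cells, 7.65 and 8.21 in PSS1-WT cells, 6.82 and 7.38 in M-CSF+RANKL cells, and 11.79 and 12.64 in M-CSF cells. Neither gene's groups overlapped, and the differences were 1.44 ± 0.25 for Ncf1 and 1.39 ± 0.25 for Bhlhe41 (limma adjusted p = 0.0348 for each).

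The PSS1-LMS and M-CSF+RANKL arrays did not overlap in 13 of the 17 genes. In the other 4, Cd36, Igf1, Cd81 and Mmp12, both cultures were brighter on day 6 than on day 3 and the groups overlapped. Of all measured genes, 13.8% had PSS1-LMS arrays that both lay above both M-CSF+RANKL arrays. The 17 genes were called from these same arrays, which by itself favours separation, so their count is a description and supports nothing. Across all genes the differences of the 2 days were almost unrelated (Pearson r = 0.109, or 0.0783 without Ptdss1, and rank correlation 0.0345, over 10871 genes, which are not independent replicates). A gene's difference on day 3 thus said little about its difference on day 6, and the genes far from 0 on both days were few.

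**Figure D2:**
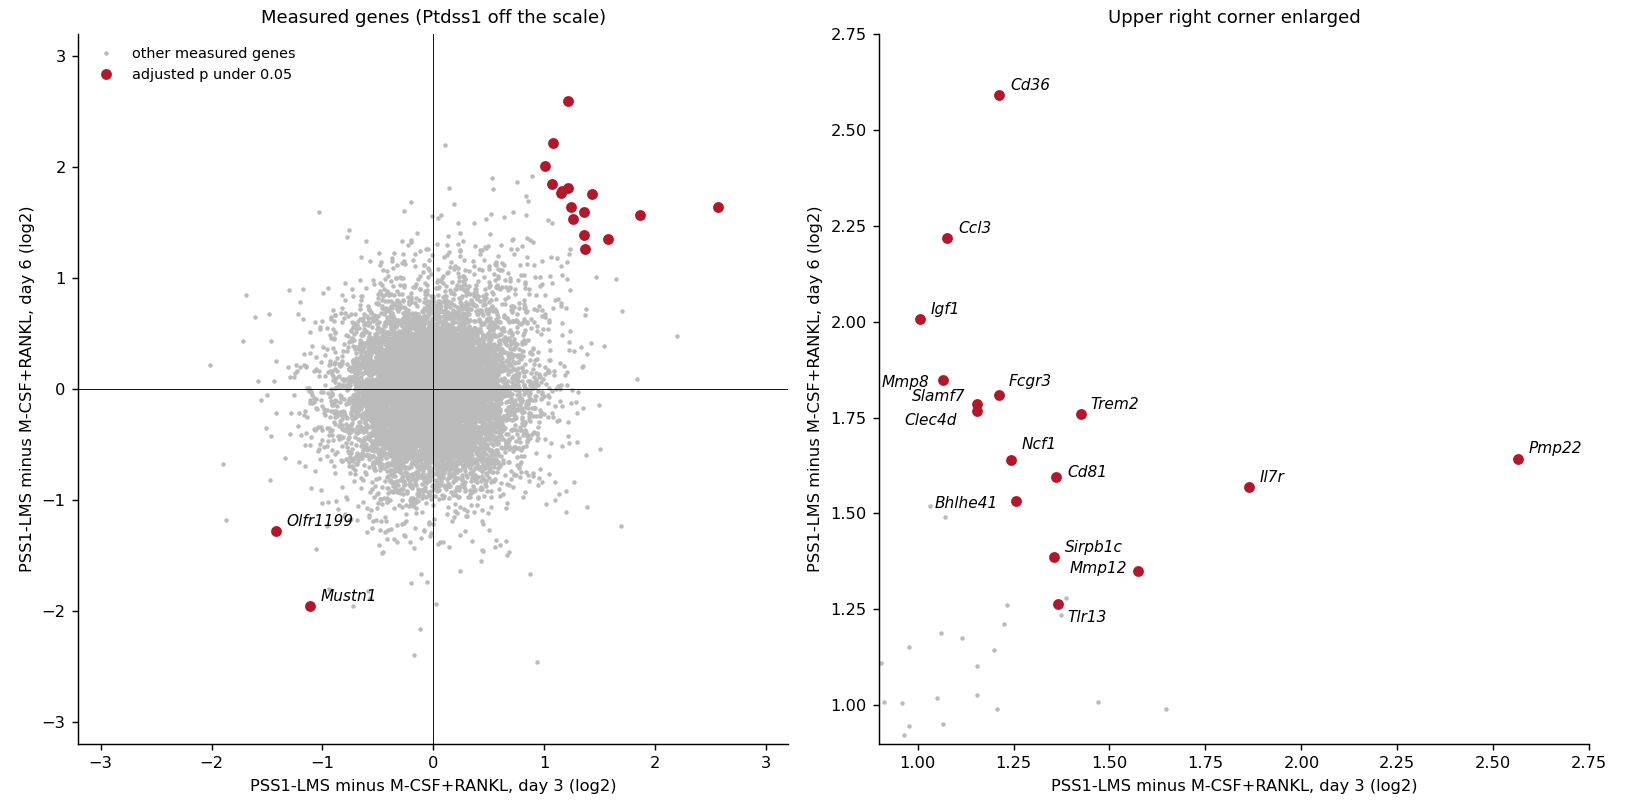
PSS1-LMS minus M-CSF+RANKL on day 3 (x axis) and day 6 (y axis), in log2 units, for each measured gene but Ptdss1, with genes past the limma threshold in red and the upper right corner enlarged on the right. The cloud has almost no slope (r = 0.0783 without Ptdss1), and the red genes lie at its corners, with Cd36 and Ccl3 farther along the day 6 axis and Pmp22 farther along the day 3 axis.

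The 2 genes called lower differ in kind. Mustn1, a small nuclear protein known from skeletal muscle, read 8.39 and 6.73 in PSS1-LMS cells, 8.28 and 6.55 in PSS1-WT cells, 9.51 and 8.69 in M-CSF+RANKL cells, and 4.75 and 4.14 in M-CSF cells, where it lay within background. It fell by 1.54 ± 0.28 on the log2 scale in PSS1-LMS cells (limma adjusted p = 0.0348), and its difference in PSS1-WT cells was -1.68 (limma adjusted p = 0.1). Olfr1199, an olfactory receptor gene, passed (limma adjusted p = 0.0348) with signals that lay within background on every array, so no fold is given. Rmrp and Akap13 were at least 2-fold lower on both days without passing. Rmrp, the RNA component of the mitochondrial RNA processing endoribonuclease, differed by -1.53 ± 0.30 from M-CSF+RANKL (limma adjusted p = 0.0581). Its difference in PSS1-WT cells was -1.43 (limma adjusted p = 0.34). Fdps, which makes farnesyl diphosphate and is the target of bone drugs of the bisphosphonate class, was at least 1.61-fold lower (limma adjusted p = 0.168), a bound set by the background, since its PSS1-LMS signals of 5.30 and 5.69 lay within it, against 6.36 and 7.14 in M-CSF+RANKL cells. In PSS1-WT cells Fdps read 6.07 and 5.60. Akap13, an anchor of protein kinase A, read 6.69 and 6.92 in PSS1-LMS cells, 8.18 and 8.65 in PSS1-WT cells, and 7.69 and 7.95 in M-CSF+RANKL cells, and its differences were -1.02 (limma adjusted p = 0.191) from M-CSF+RANKL and -1.61 (limma adjusted p = 0.0792) from PSS1-WT.

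Between PSS1-LMS and PSS1-WT cells, which differ only in the insert by their labels, no gene passed with limma (0 higher and 0 lower of 10871, with 773 genes, 7.11%, at an unadjusted p under 0.05 and a smallest adjusted p of 0.0792). The 16 genes had been chosen for high signals on the same 2 PSS1-LMS arrays, which by itself raises their PSS1-LMS minus PSS1-WT values, so these are a description and support nothing. They ran between 0.39 and 1.59 with a median of 1.01, against 0.04 for all measured genes. The widest gaps were those of Pmp22 (1.59, 95% interval ± 0.65, limma adjusted p = 0.186), Cd81 (1.55 ± 0.53, limma adjusted p = 0.0792), Ccl3 (1.50 ± 0.63, limma adjusted p = 0.186) and Fcgr3 (1.37 ± 0.57, limma adjusted p = 0.186). The narrowest was that of Cd36 (0.39, 95% interval ± 0.64, limma adjusted p = 0.838), which read 1.52 above M-CSF+RANKL in PSS1-WT cells. The intervals of these 5 genes cover the spread pooled in the fit and are not adjusted for the number of genes. PSS1-WT minus M-CSF+RANKL shares the M-CSF+RANKL arrays by which the 16 genes were chosen, so its values are given side by side: PSS1-WT minus M-CSF+RANKL was between -0.07, for Cd81, and 1.52, for Cd36, with a median of 0.51, and it passed for none of the 16 genes. Ptdss1 was the 1 gene past the limma threshold in PSS1-WT against M-CSF+RANKL (0.0092% higher, none lower, and 6.86% at an unadjusted p under 0.05), and on both days 5 genes (0.046%) exceeded M-CSF+RANKL at least 2-fold there and 8 (0.0736%) fell short of it by as much.

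A further 13 genes were at least 2-fold higher in PSS1-LMS than in M-CSF+RANKL cells on both days and did not pass (2.05-fold to 2.52-fold, limma adjusted p 0.0618 to 0.261). These and Ptdss1 with the 16 genes make up 30 genes (0.276%), against 5 (0.046%) at least 2-fold lower on both days by their deposited signals, 2 of which, Fdps and Olfr1199, lay within background in PSS1-LMS cells. They were named after their values were seen. Ctsl, a lysosomal protease, differed by 1.25 ± 0.24 (limma adjusted p = 0.0618), and in PSS1-WT cells by 0.96. Tlr7, the endosomal receptor for single-stranded RNA, differed by 1.30, Lgals9, a secreted galectin, by 1.28 and Mpeg1, a pore-forming protein of macrophages, by 1.22. Lyz2, the lysozyme of myeloid cells, read 18.09 and 18.62 in PSS1-LMS cells, 17.61 and 17.64 in PSS1-WT cells, 17.04 and 17.60 in M-CSF+RANKL cells and 19.90 and 19.93, at the ceiling, in M-CSF cells. Gsta3, Clec4e, Lpxn, C3ar1, Lilr4b, Pdpn, Ednrb and Fli1 completed the group.

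Macrophage markers were read as a list, chosen with earlier results of these data known. Of 14 measured markers none passed, and 7 lay higher and 1 lower in PSS1-LMS than in M-CSF+RANKL cells on both days. On average 9 lay higher and 5 lower, against 5055 higher and 5816 lower of the 10871 measured genes. In PSS1-WT cells the list median was -0.05. In PSS1-LMS cells the median difference was 0.34, against -0.02 for all measured genes. The median was 0.67 without the day 3 array of PSS1-LMS, 0.19 without its day 6 array and 0.12 with signals raised to the brightest background. Of all measured genes, 23.2% lay higher on both days and 27.6% lower. Mrc1, the mannose receptor, read 9.97 and 11.04 in PSS1-LMS cells, 9.11 and 10.49 in PSS1-WT cells, 9.26 and 9.69 in M-CSF+RANKL cells, and 16.32 and 18.76 in M-CSF cells. Msr1, a scavenger receptor, read 12.56 and 12.85 in PSS1-LMS cells, 12.14 and 12.13 in PSS1-WT cells, and 11.64 and 11.85 in M-CSF+RANKL cells. C1qb, a chain of complement C1q, read 8.01 and 9.29 in PSS1-LMS cells, 6.94 and 7.29 in PSS1-WT cells, and 7.0 and 8.62 in M-CSF+RANKL cells. Adgre1, a surface antigen of macrophages, differed by 0.62 and Csf1r, the M-CSF receptor, by -0.09. The defining markers Cx3cr1, Cd163, Fcgr1 and Siglec1 lay within background on all 6 arrays with RANKL. The summed log2 signal of the list was 18.54 and 18.94 in PSS1-LMS cells, 18.27 and 18.20 in PSS1-WT cells, 17.92 and 18.15 in M-CSF+RANKL cells, and 20.44 and 21.00 in M-CSF cells. Lyz2 alone, at 18.09 and 18.62 in PSS1-LMS cells, made up most of this sum on the arrays with RANKL. It was at the ceiling in M-CSF cells, so the sum follows 1 bright gene more than the list. In bulk cells, more cells of a type and more RNA per cell cannot be told apart, and the part of macrophages in the 16 genes was not tested.

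The signal was also read across all genes by how strongly RANKL acts on them. For the day 3 difference, genes were grouped by M-CSF+RANKL against M-CSF on day 6, and for the day 6 difference by day 3, so that no array was used on both sides, although the days may share a culture. Among genes more than 16-fold lower with RANKL, PSS1-LMS minus M-CSF+RANKL had a median of 0.36 on day 3 (279 genes, 76.7% of them higher) and 0.73 on day 6 (174 genes, 85.1% higher). Among genes more than 16-fold higher with RANKL it was -0.32 on day 3 (178 genes, 19.7% higher) and -0.30 on day 6 (204 genes, 25.5% higher). Genes within 2-fold stood at -0.01 and -0.03. The genes that RANKL turns down thus lay higher, and those that it turns up lay lower, in graded steps on both days. PSS1-WT minus M-CSF+RANKL had medians of 0.09 and 0.23 in the genes turned down most and -0.26 on both days in the genes turned up most. PSS1-LMS minus PSS1-WT had medians of 0.27 and 0.54 in the first of these groups and -0.07 and 0.00 in the second. Genes are not replicates, so these medians carry no test.

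**Figure D3:**
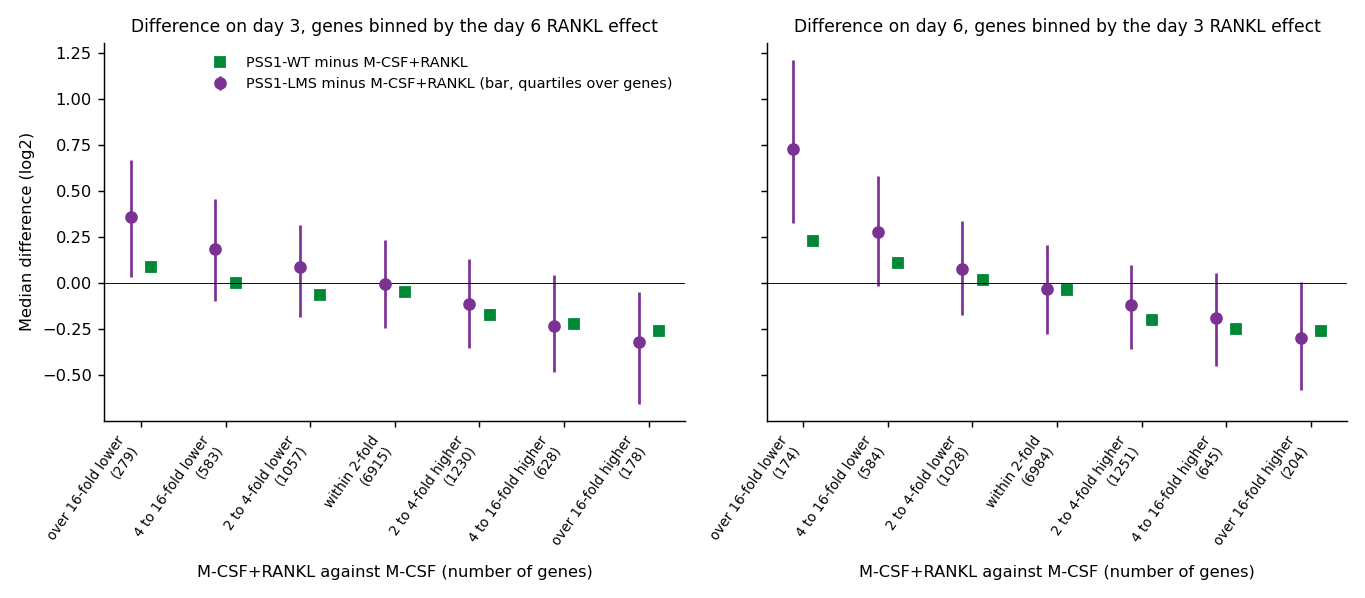
Median log2 difference over genes grouped by the size of the RANKL effect on the other day, with PSS1-LMS minus M-CSF+RANKL in purple (bars, quartiles over genes), PSS1-WT minus M-CSF+RANKL in green, and the number of genes in brackets, on day 3 (left) and day 6 (right). The purple medians step down over the groups, with 0.36 at the left end and -0.32 at the right end on day 3 and 0.73 and -0.30 on day 6. From the left, they lie above the green ones up to the genes 2 to 4-fold higher with RANKL on day 3. On day 6 they do so up to the genes 4 to 16-fold higher, and farther right in each panel they lie below.

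Osteoclast genes were read next. Of 10 osteoclast markers none was called in either direction, and the median difference was -0.12, with -0.19 in PSS1-WT cells. Acp5, the tartrate-resistant acid phosphatase, read 19.86 and 19.89 in PSS1-LMS cells against 19.91 and 19.92 in M-CSF+RANKL cells, and Ctsk, the protease that digests bone collagen, read 19.63 and 19.90 against 19.81 and 19.89. These signals are close to the ceiling of the scale, which bounds any difference. Mmp9, a gelatinase, read 19.47 and 19.46 in PSS1-LMS cells against 19.63 and 19.49 in M-CSF+RANKL cells, a difference of -0.10 that turned to 0.02 after quantile normalization. Nfatc1, the master transcription factor of osteoclasts, read 14.67 and 13.60 in PSS1-LMS cells, 14.74 and 13.75 in PSS1-WT cells, and 14.61 and 13.71 in M-CSF+RANKL cells. Its difference was -0.03 with a 95% interval of ± 0.52. Dcstamp, needed for precursor fusion, read 16.28 and 16.69 in PSS1-LMS cells against 16.38 and 17.01 in M-CSF+RANKL cells.

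None of 17 resorption genes passed. All 17 lay lower on average, against 5816 of the 10871 measured genes. On both days 10 of the 17 lay lower, against 27.6% of all measured genes. Their median was -0.28, and the same median in PSS1-WT cells was -0.28. In PSS1-LMS cells it was -0.11 without the day 3 array of PSS1-LMS, -0.46 without its day 6 array and -0.13 without the day 3 array of M-CSF+RANKL. The largest differences were those of Slc4a2 and Car2. Slc4a2, the anion exchanger that removes bicarbonate, read 10.51 and 10.20 in PSS1-LMS cells, 10.81 and 10.41 in PSS1-WT cells, and 11.05 and 11.40 in M-CSF+RANKL cells (-0.87 ± 0.26, limma adjusted p = 0.401). Car2, the carbonic anhydrase that supplies protons, read 14.63 and 15.53 in PSS1-LMS cells, 15.22 and 15.53 in PSS1-WT cells, and 15.93 and 15.94 in M-CSF+RANKL cells (-0.85 ± 0.27, limma adjusted p = 0.426). Of 15 subunits of the proton pump V-ATPase none passed, and 8 lay lower on both days. Their median was -0.26, with -0.34 in PSS1-WT cells. The exception among them was Atp6v0a1, at 0.64. Of 19 genes of mitochondrial respiration none passed and 11 lay lower on both days (median -0.24, with -0.16 in PSS1-WT cells). The podosome gene Vcl, which anchors actin at adhesions, differed by -0.90 ± 0.26 (limma adjusted p = 0.359), and in PSS1-WT cells by -0.72.

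Among RANK signalling and transcription factors, none of 19 passed and the median was -0.08. Myc stood apart at 15.92 and 15.87 in PSS1-LMS cells, 15.74 and 15.02 in PSS1-WT cells, and 14.84 and 15.14 in M-CSF+RANKL cells (0.90 ± 0.28, limma adjusted p = 0.403). Of 15 repressors of osteoclast formation none passed, and 8 lay higher and 1 lower on both days, against 23.2% and 27.6% of all measured genes. On all 6 arrays with RANKL, 6 of the 15 lay within background. The list median was 0.12, with -0.02 in PSS1-WT cells. Bcl6 differed by 0.69, Rbpj, a partner of Notch, by 0.60 and Dok2, an adaptor that dampens kinase signals, by 0.56.

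Of the other 10 measured genes of phosphatidylserine and phosphatidylethanolamine synthesis, the pathway that PSS1 serves, none passed. On average 2 lay higher and 8 lower in PSS1-LMS cells, against 5055 higher and 5816 lower of the 10871 measured genes. The median of the 10 was -0.19. On both days 2 lay higher and 5 lower, against 23.2% and 27.6% of all measured genes. Ptdss2, the second synthase, which uses phosphatidylethanolamine, read 7.79 and 7.62 in PSS1-LMS cells, 8.26 and 8.07 in PSS1-WT cells, and 8.18 and 8.20 in M-CSF+RANKL cells (-0.48, limma adjusted p = 0.804). Pcyt2, the rate-limiting enzyme of phosphatidylethanolamine synthesis from ethanolamine, differed by -0.65 (limma adjusted p = 0.596), and Pisd, the mitochondrial phosphatidylserine decarboxylase, by -0.08. In phosphatidylserine recognition, Cd36 was the 1 gene of 16 called, and the median was 0.20. Cd300lb, an activating receptor for phosphatidylserine, read 8.33 and 9.19 in PSS1-LMS cells, 8.54 and 8.48 in PSS1-WT cells, and 7.64 and 8.28 in M-CSF+RANKL cells (0.80, limma adjusted p = 0.488). None of 14 flippase and scramblase genes passed, and their median was 0.00. Atp8b4, a P4-type ATPase of the flippase family, had the largest difference of them, at 9.04 and 9.72 in PSS1-LMS cells, 8.25 and 8.85 in PSS1-WT cells, and 8.20 and 7.98 in M-CSF+RANKL cells (1.28 ± 0.27, limma adjusted p = 0.101).

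The cholesterol synthesis list, also chosen with earlier results of these data known, lay lower in PSS1-LMS cells. None of 18 passed, and 12 lay lower and none higher on both days, against 27.6% and 23.2% of all measured genes. The median was -0.46, with -0.58 in PSS1-WT cells. It was -0.19 with signals raised to the brightest background. Idi1, an isomerase of the isoprenoid pathway, read 7.74 and 7.94 in PSS1-LMS cells, 7.30 and 7.85 in PSS1-WT cells, and 8.0 and 9.25 in M-CSF+RANKL cells (-0.79, limma adjusted p = 0.524). Hmgcs1, which makes the substrate of the rate-limiting reductase, read 11.12 and 11.07 in PSS1-LMS cells, 10.92 and 11.14 in PSS1-WT cells, and 11.50 and 11.99 in M-CSF+RANKL cells (-0.65, limma adjusted p = 0.618). Its promoter holds a sterol regulatory element, the site of the SREBP factors that switch this pathway on, in capitals in the 150 bases before its start.
Hmgcs1, chr13:119690201-119690350, plus strand: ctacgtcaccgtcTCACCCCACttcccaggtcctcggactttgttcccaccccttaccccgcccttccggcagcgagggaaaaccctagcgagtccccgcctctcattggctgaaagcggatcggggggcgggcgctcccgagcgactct
It was 1 of the 14 genes of the list in the promoter table with the letters TCACNCCAC in the 250 bases before the start (7.143%).

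The cell cycle list, chosen with earlier results of these data known, lay higher in PSS1-LMS cells. Its counts are thus a description. Of 23 measured, none passed, 16 lay higher and 1 lower on both days, against 23.2% higher and 27.6% lower of all measured genes, and 13 had PSS1-LMS arrays that both lay above both M-CSF+RANKL arrays, against 13.8% of all measured genes. The list median was 0.36, with 0.53 on day 3 and 0.21 on day 6, and in PSS1-WT cells it was 0.03. Over the alternatives it lay between 0.24 and 0.50. Tpx2, which assembles the mitotic spindle, read 9.68 and 10.39 in PSS1-LMS cells, 9.12 and 9.61 in PSS1-WT cells, and 8.81 and 9.05 in M-CSF+RANKL cells (1.10 ± 0.25, limma adjusted p = 0.138). In M-CSF cells Tpx2 read 12.34 and 10.45, above the other cultures. Aurkb, a mitotic kinase, and Cdk1, the kinase of mitotic entry, each differed by 0.64.

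**Figure D4:**
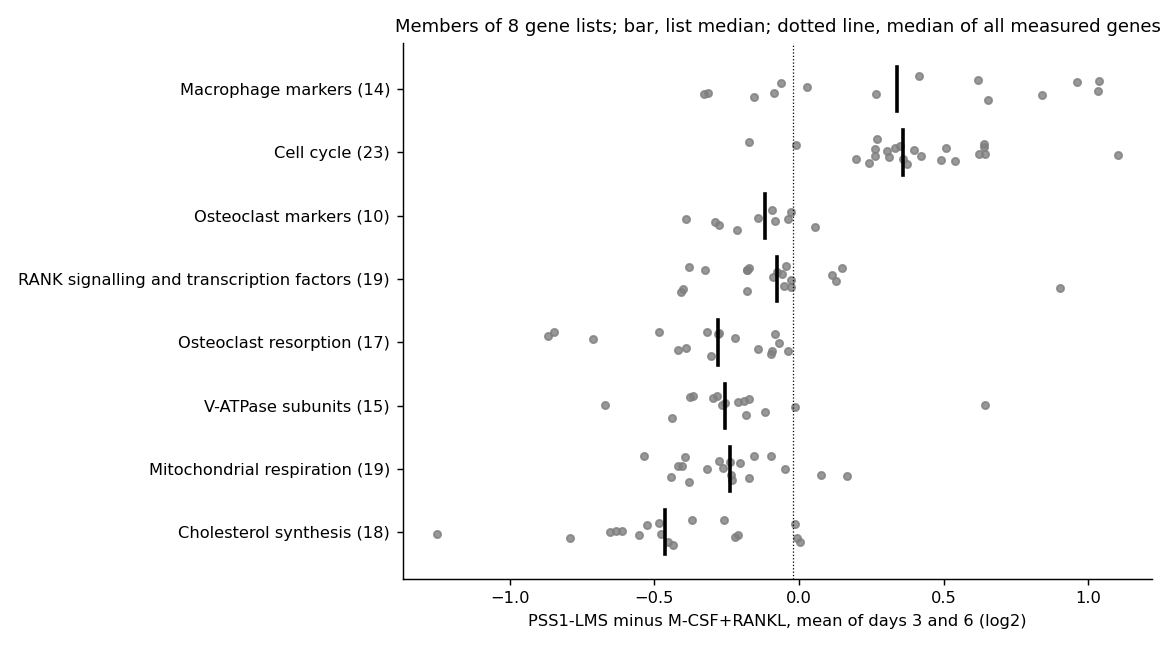
Average log2 difference, PSS1-LMS minus M-CSF+RANKL, for each measured member of 8 gene lists, with the number of members in brackets, a bar at the list median, and a dotted line at the median of all measured genes (-0.02). No member passed the limma threshold; the macrophage markers and cell cycle genes centre at 0.34 and 0.36, and cholesterol synthesis at -0.46.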

How the data were processed

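Per the labels, bone marrow cells were profiled on Affymetrix mouse arrays from total RNA, 1 array for each of 8 groups. The authors deposited 1 table of log2 signals for 28846 features; the log2 scale was read from its values, and the probe summary and normalization are not given in the sources used here. Values were used as deposited, with array medians between 4.80 and 4.93. Of 22206 transcript clusters, 19572 had 1 symbol in the platform annotation, none had several and 2634 had none. They gave 19505 genes; for 55 with several clusters the brightest was used. Measured genes reached 4.86 on at least 1 array.

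The test was limma 3.58.1 in R 4.3.3 (lmFit, eBayes; 2 residual and 13.3 prior degrees of freedom, threshold 0.05), checked on simulated data. Tables and figures used Python 3.11.15, pandas 2.3.3 and matplotlib 3.10.9. Members, markers and lists were chosen with earlier results of these data known. Lists are given by counts and medians. Named were Ptdss1, Pmp22, Cd36, Trem2 and Il7r, up to 15 genes a direction by size of the average difference, 8 further genes, up to 4 members of each list, every call in a list, and the 5 calls that differed most between days; Sirpb1c, Tlr13, Olfr1199, Tyrobp, Adgre1, Aurkb and the uncalled 2-fold higher genes were named after their values were seen. Of the 168 genes this rule allows, 100 list members are not described; those described were picked with values known and include each with an unadjusted p under 0.01. List genes without a symbol in the table were not analysed here. Alternatives covered the arrays in the fit, scaling, filters, background, clusters, variance trend and day term.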

Additional observations from a re-analysis of the deposited data

Results flagged for a closer look

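Among the 2634 transcript clusters without a gene symbol, which no gene comparison used, 1 was at least 2-fold lower in PSS1-LMS than in M-CSF+RANKL cells on both days by its deposited signals, with the M-CSF+RANKL signals above background and the PSS1-LMS signals within it. It read 5.51 and 5.84 in PSS1-LMS cells, 7.03 and 7.51 in PSS1-WT cells, 6.58 and 7.46 in M-CSF+RANKL cells, and 8.11 and 7.81 in M-CSF cells, so averaged over the days it was at least 1.95-fold lower in PSS1-LMS cells, a bound set by the background. It was singled out because it lies outside the main measurement, the difference was not tested, and the cluster is not named here. A further 2 such clusters were at least 2-fold higher on both days, and in neither did the higher side lie above background on both days.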

How the results depend on the processing

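Counts of calls moved with the processing. Against 17 higher and 2 lower genes, limma gave 47 and 12 on the 4 arrays of PSS1-LMS and M-CSF+RANKL alone, 37 and 6 with a variance trend on mean signal, and 33 and 4 when genes had to reach the brightest background probe set. It gave 1 and 0 with all 8 arrays, with quantile normalization of the 8 arrays, with quantile normalization of the 6 arrays with RANKL, without the day term, and with signals raised to the brightest background where genes at it on all 6 arrays were left out. It gave 2 and 0 without a filter and 0 and 0 with all signals so raised. The second quantile setting and the setting with genes left out were chosen after seeing the data. Leaving out 1 array at a time gave 7 to 52 higher and 4 to 31 lower genes; where that left 1 array of a culture, it was assumed to vary like the others. Centring the arrays and averaging a gene's clusters kept 17 and 2. The calls other than Ptdss1 were each lost in 6 to 10 of the 18 settings, of which not all could test Olfr1199, and 24 of the 62 named genes that were not called passed in at least 1. Leaving out either PSS1-WT array repeats the fit on the 4 arrays of PSS1-LMS and M-CSF+RANKL. The 18 settings thus count the same fit more than once, and their share is no measure of stability. The median difference of 16 of the 40 gene lists turned its sign in at least 1 setting, among them tetraspanins (0.09, down to -0.17 without the day 3 array of M-CSF+RANKL), monocyte markers (0.03, down to -0.31 without the day 3 array of PSS1-LMS), stromal markers (-0.13, up to 0.29), neutrophil markers (-0.01, up to 0.27) and ITAM genes (0.05, down to -0.06). The medians of respiration (-0.39 to -0.09), V-ATPase (-0.32 to -0.18), osteoclast markers (-0.23 to -0.01) and coupling factors (-0.59 to -0.21) kept theirs. The cause of these shifts was not tested. Of the genes near 0, Mmp9 turned to 0.024 with quantile normalization of the 8 arrays and 0.022 with that of the 6 arrays, and leaving out arrays moved Pisd between -0.55 and 0.39, Nfatc1 between -0.094 and 0.040, Csf1r between -0.18 and 0.010 and Tyrobp between -0.32 and 0.13. The labels carry no replicate numbers, and the day term pairs the arrays by day. Limits are 1 array per culture and day, signals at the ceiling for resorption genes, and signals within background for low genes.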

Other observations

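Other gene lists held single members that stood far from 0 without passing the limma threshold. Elovl6, which elongates fatty acids, read 6.91 and 6.94 in PSS1-LMS cells, 6.00 and 5.49 in PSS1-WT cells, and 5.95 and 5.93 in M-CSF+RANKL cells, a difference of 0.98 ± 0.25 from M-CSF+RANKL, whose day 3 signal lay within background (limma adjusted p = 0.242), and of 1.18 from PSS1-WT (limma adjusted p = 0.252). The p53 target Cdkn1a, an inhibitor of cyclin-dependent kinases, read 15.20 and 16.18 in PSS1-LMS cells, 14.79 and 15.60 in PSS1-WT cells, and 14.35 and 14.99 in M-CSF+RANKL cells, and Mdm2, which degrades p53, differed by 0.81. Pmaip1, a killer protein of the same pathway, was at least 1.43-fold lower in PSS1-LMS cells, a bound, since both PSS1-LMS signals lay within background. Slc11a1, the metal pump of phagosomes, differed by 0.95. Among the coupling factors through which osteoclasts act on osteoblasts, Lif, a cytokine, read 8.68 and 8.59 in PSS1-LMS cells, 8.92 and 8.98 in PSS1-WT cells, and 9.22 and 9.57 in M-CSF+RANKL cells, and Pdgfb, a growth factor, differed by -0.64; none of the 7 measured members passed, and the median was -0.39. Ctss, a lysosomal cysteine protease, read 12.89 and 13.57 in PSS1-LMS cells, 12.42 and 13.31 in PSS1-WT cells, and 12.05 and 12.22 in M-CSF+RANKL cells (1.10 ± 0.26, limma adjusted p = 0.179). Ccl2, a chemokine for monocytes, read 6.81 and 7.99 in PSS1-LMS cells, 6.68 and 6.83 in PSS1-WT cells, and 6.62 and 6.32 in M-CSF+RANKL cells (limma adjusted p = 0.484), so its difference of 0.93 lay mostly on day 6. Among ITAM receptors and their relatives, Fcgr2b, the inhibitory receptor for IgG, differed by 0.87 and Clec5a, a lectin that signals through an adaptor, by 0.75. Sphk1, which makes sphingosine 1-phosphate, was at least 1.27-fold lower, with the day 6 signal of PSS1-LMS within background. Mertk, a receptor for the uptake of dying cells, and Hgf, a growth factor, lay within background in PSS1-LMS and M-CSF+RANKL cells on both days.

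None of 18 genes of the integrated stress response (median 0.03), of 14 genes of the unfolded protein response (-0.04), of 15 interferon-stimulated genes (0.02), of 13 autophagy genes (-0.05) or of 16 lysosome genes (0.04) passed. Of the 18 interferon-stimulated genes with a symbol on the array, 14 lay within background on all 6 arrays with RANKL, so little can be read from their median. The same held for 8 of 15 inflammatory cytokines, 6 of 14 targets of PPARg and 6 of 12 coupling factors. Within background there also lay 6 of 19 genes of phosphatidylserine recognition and 6 of 16 flippases and scramblases. Phosphoinositide transfer (12 genes, -0.04), podosomes (18 genes, -0.16), integrin subunits (15 genes, -0.21), calcium signalling (14 genes, 0.07), glycolysis (16 genes, -0.12), fatty acid synthesis (11 genes, -0.05), targets of LXR (10 genes, 0.15) and of PPARg (9 genes, 0.30), apoptosis and p53 (12 genes, 0.13) and iron handling (10 genes, -0.06) held no call either. Cd81 was the 1 call among 11 fusion genes (median -0.06), Cd81 and Pmp22 were the 2 calls among 15 tetraspanins and relatives of PMP22 (0.09), and Ccl3 was the 1 call among 8 inflammatory cytokines (0.28). Of the markers of other cells, none passed among 5 of dendritic cells (-0.16), 2 of erythroid cells (-0.33), 4 of megakaryocytes, mast cells and basophils (0.46) and 4 of stromal cells and osteoblasts (-0.13), and Il7r alone passed among 7 of monocytes and early progenitors (0.03). In that list Ccr2, the chemokine receptor of monocytes, went the other way, at 5.69 and 3.49 in PSS1-LMS cells, 5.23 and 3.95 in PSS1-WT cells, and 6.28 and 5.32 in M-CSF+RANKL cells (limma adjusted p = 0.197). Of these, the day 3 signal of M-CSF+RANKL alone lay above background, so no fold is given. The 1 measured B cell marker was Blnk (0.66), and the 2 measured T and NK cell markers were Il7r and Cd4 (median 1.18). Many markers with a symbol lay within background on all 6 arrays with RANKL. These were 5 of 10 of dendritic cells, 6 of 8 of megakaryocytes, mast cells and basophils, and 8 of 10 of stromal cells and osteoblasts. Little can thus be read from the medians of these lists.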
